A study of Mus musculus with 24 samples.

Results

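The response of control macrophages to 2 h of lipopolysaccharide (LPS), a cell wall component of Gram-negative bacteria, was followed by RNA sequencing in BMDMs, the macrophages that grow out of cultured mouse bone marrow. The comparison took 6 of the 24 libraries of the study: 3 from LysM-Cre cells left untreated (0 h) and 3 from LysM-Cre cells given LPS at 100 ng/ml for 2 h. Its members were all genes that passed a filter on low values, a linear value of at least 5 in at least 3 of the 24 libraries, which were 13901 of 24273 genes. The remaining libraries held LysM-Cre cells after 1 h and 0.5 h with LPS, and cells labelled FosKO (Fos fl/fl with LysM-Cre) at each of the 4 times, with 3 libraries in every group.

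All mice were on a C57BL/6 background, and every group carried LysM-Cre, a Cre recombinase placed in the lysozyme gene Lyz2 and active in myeloid cells. The series' design text names the controls LysM-Cre alone, but the text of the study adds 1 floxed allele of Fos. Lyz2 itself was 10.94 ± 0.09 (log2 value, SD, n = 3) at 0 h and 11.26 ± 0.15 at 2 h in LysM-Cre, against 16.10 ± 0.02 and 16.32 ± 0.02 in the libraries labelled FosKO. The Fos value of the libraries labelled FosKO was 12.60 ± 0.17 before and 12.80 ± 0.13 after LPS, above the 11.11 ± 0.05 and 9.52 ± 0.10 of LysM-Cre, so it did not verify that label, and a single value per gene does not show whether the floxed exons were transcribed. The study reports that loss of FOS raised Ifnb1 mRNA after LPS. Ifnb1 also rose more in the libraries labelled FosKO than in LysM-Cre, with values given below. The labels do not say whether the 3 libraries of a group came from separate mice. The SEs and p-values measure only the spread between libraries of the same group, pooled over all 8 groups of the 24 libraries. An SE can therefore be larger or smaller than the 6 libraries compared would give alone.

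Values are the log2 expression values that the authors deposited, on which a difference of 1 is a doubling. They are normalised but not per transcript length, so the level of a gene is compared between samples and not with other genes. Sums over several genes are not corrected for length either, so sums of different gene sets are a rough guide only. The deposited table does not give the read depth of each library. The SD of a gene over its 3 libraries had a median of 0.0573 before and 0.0604 after LPS. A gene was called at a Benjamini-Hochberg adjusted p under 0.05 in limma, which fits a linear model to every gene and moderates the variances across genes. The 12 macrophage markers were all tested and their summed linear value was 272200 to 279900 at 0 h and 331400 to 338200 at 2 h. The markers of 8 other cell types summed to between 3.51 and 440.3 in each of the 6 libraries, and the T cell receptor genes Cd3d, Cd3e and Cd3g, the B cell gene Cd79a and the neutrophil genes Ly6g and Elane were below the filter. The tested neutrophil markers S100a8, S100a9, Ngp and Ltf all rose, by 0.51 to 0.90. The 9 neutrophil markers with a value, tested or not, summed to 80.7 to 110.2 at 0 h and 131.7 to 173.0 at 2 h. Of 3 tested dendritic cell markers, Zbtb46 (2.24) and Xcr1 (1.85) rose and Clec9a (-0.25) was not called. All 6 dendritic cell markers, tested or not, summed to 34.7 to 37.0 at 0 h and 114.7 to 126.7 at 2 h. Of 2 tested T cell markers the kinase gene Lck (1.68) rose and Cd4 (-0.05) was not called, and the 1 tested NK cell marker, Klrk1 (0.98), rose. The part of such cells in the results was not tested. In bulk RNA, fewer cells of a type and less RNA per cell cannot be told apart.

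LPS is sensed by TLR4 together with its co-receptors CD14 and MD-2. The adaptor MyD88 leads to NF-kB and MAP kinases, and the adaptor TRIF leads to the transcription factor IRF3 and to interferon beta. Secreted interferon beta then acts back on the cells and switches on interferon-stimulated genes. Macrophages answer in waves, in which immediate early genes come first, inflammatory cytokines and inhibitors of the signal follow, and genes that depend on newly made proteins come later.

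After 2 h of LPS, most listed genes for cytokines, chemokines, the NF-kB system and interferon-stimulated proteins stood above their level before LPS, while single receptors such as Cnr2 and Lpar6, several transcription factors and most listed genes of the cell cycle and DNA replication stood below it. limma called 8448 genes, or 60.8% of those tested. Of these, 4248 were higher (30.6%) and 4200 lower (30.21%). The directions were close in number but not in size. At least a 2-fold change was seen in 755 higher genes (5.43%) and 365 lower genes (2.63%), together 8.06%, a 4-fold change in 240 and 21, an 8-fold change in 78 and 2, and a 16-fold change in 35 and 1. The 3 libraries at 2 h did not overlap the 3 at 0 h for 67.9% of the tested genes.

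**Figure D1:**
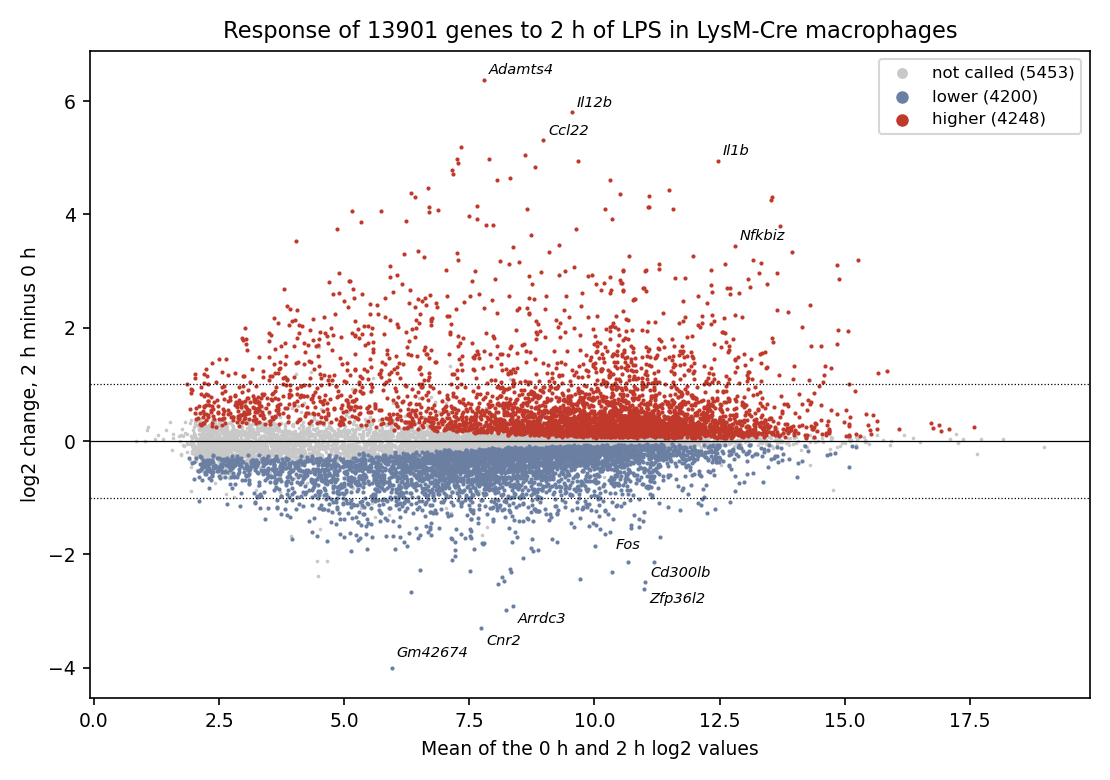
Change at 2 h of LPS (vertical axis, log2 value at 2 h minus 0 h) against the mean of the 0 h and 2 h log2 values (horizontal axis) for each of 13901 tested genes in LysM-Cre macrophages, coloured by call, with dotted lines at a 2-fold change. Rises reach 6.37 in Adamts4, whereas Gm42674 and Cnr2 are the only falls of at least 8-fold.

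In linear terms, the 755 genes that rose at least 2-fold made up 4.60% to 4.65% of the summed linear values at 0 h and 14.1% to 14.7% at 2 h. The 365 genes that fell at least 2-fold went from 1.22% to between 0.402% and 0.417%. The median change of all tested genes was -0.02. Under quantile normalisation, which forces all libraries to 1 distribution, the share of called genes that were higher went from 50.3% to 40.0%, while the 2-fold counts stayed close, at 708 higher and 358 lower.

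The 12 largest rises among well expressed protein-coding genes included genes for secreted signals, extracellular proteases and a receptor. They were picked by size among called genes whose 2 h libraries did not overlap those of 0 h, so that separation was fixed by the choice. Adamts4 (ENSMUSG00000006403, chr1:171250421-171260637, plus strand), a secreted protease that cleaves the cartilage proteoglycan aggrecan, changed most. It went from 4.58, 4.54 and 4.68 before LPS to 10.96, 10.94 and 11.01 after it. The rise was 6.37 (SE 0.12, limma adjusted p 3.43e-20), or 82.6-fold. Il12b (chr11:44400063-44414033, plus strand), which encodes the subunit shared by the cytokines IL-12 and IL-23, was at 6.64, 6.68 and 6.61 before and 12.33, 12.42 and 12.59 after LPS, a rise of 5.80 (SE 0.11, adjusted p 3.45e-20). In both genes every library at 2 h lay far above every library at 0 h.

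Ccl22, a chemokine that attracts cells bearing CCR4, went from 6.31, 6.27 and 6.41 to 11.60, 11.62 and 11.68, a rise of 5.31 (SE 0.11, limma adjusted p 8.49e-20). Cish, a member of the SOCS family that restrains STAT signalling, went from 4.81, 4.74 and 4.64 to 9.94, 9.86 and 9.96, a rise of 5.19 (SE 0.11, adjusted p 3.76e-19). Edn1, the precursor of the vasoconstrictor endothelin-1, went from 5.58, 5.34 and 5.27 to 10.31, 10.35 and 10.49, a rise of 4.98 (SE 0.12, adjusted p 3.10e-18). None of these genes had a 2 h library within the 0 h range, which the rule for naming them required. Olr1, a receptor for oxidised LDL, rose by 4.98, and Il4i1, a secreted amino acid oxidase, by 5.05. The value of Il4i1 is uncertain because it overlaps Nup62 on the same strand, which rose by 0.89.

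Il1b, Il6 and Il27 completed the cytokines among the largest rises. Il1b was at 9.99, 10.00 and 9.99 before and 14.85, 14.96 and 15.00 after LPS (rise 4.94, SE 0.08, limma adjusted p 5.70e-21). Il6 was at 4.84, 4.81 and 4.83 before and 9.65, 9.60 and 9.92 after (4.90, SE 0.12, adjusted p 1.36e-18). Il27, a subunit of a cytokine that pairs with the product of Ebi3, rose by 4.84, and Ebi3 itself by 1.46. In all 3 cytokine genes the libraries of 2 h lay far above those of 0 h. Plat, a plasminogen activator, rose by 4.78. Antisense genes on the other strand rose beside Il1b (Il1bos, 2.97) and Cish (Gm17041, 2.69). The libraries are stated to be strand-specific, but whether the counting used strand is not given in the sources used here.

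**Figure D2:**
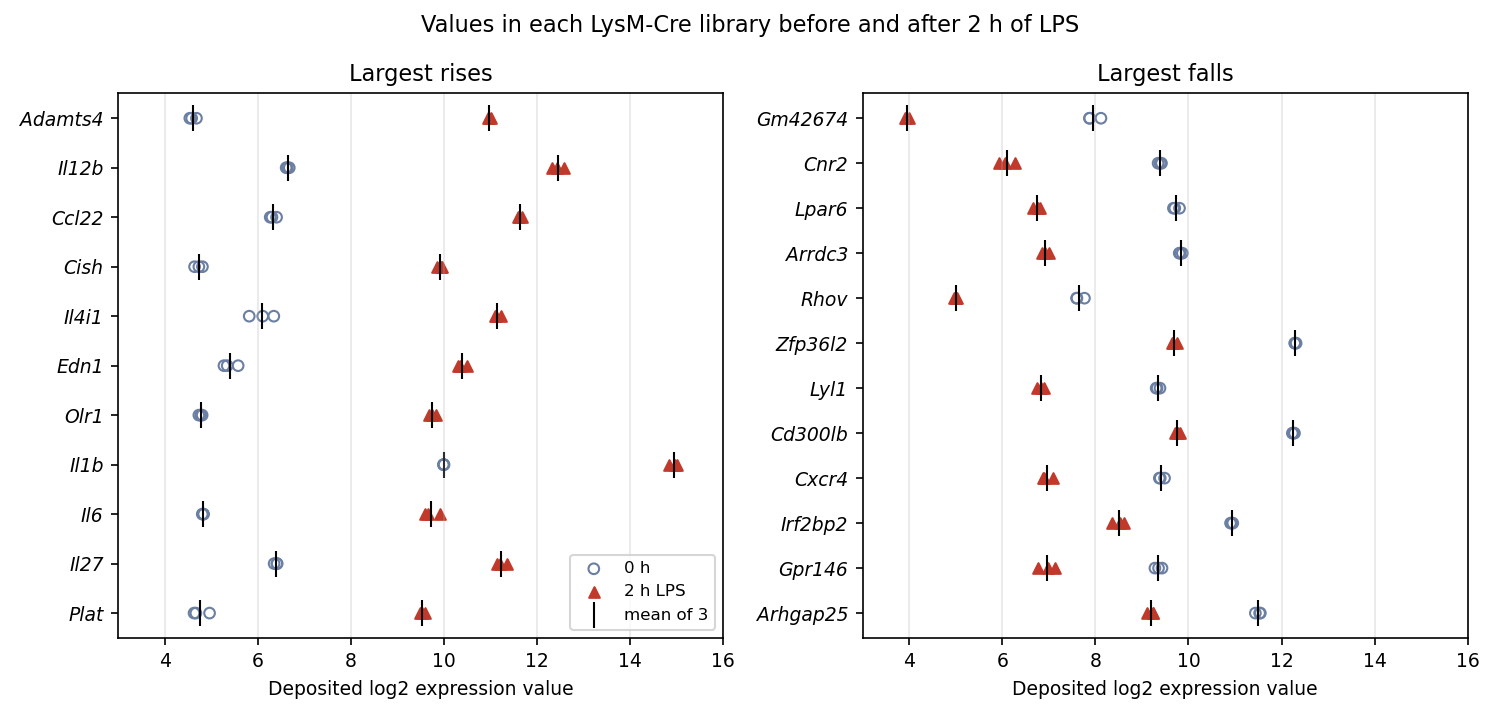
Deposited log2 values (horizontal axis) of 11 of the 12 largest rises and of the 12 largest falls in each LysM-Cre library, with open circles for 0 h, triangles for 2 h of LPS and a bar for the mean of 3. Adamts4 moves from a mean near 4.60 to one near 10.97. The genes were picked for groups of libraries that do not overlap.

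The largest falls, picked by the same rule, were smaller and included surface receptors, regulators of transcription and an RNA decay factor. Cnr2 (chr4:135895394-135920207, plus strand), the cannabinoid receptor of immune cells, was at 9.39, 9.42 and 9.35 before and 6.27, 5.94 and 6.07 after LPS, a change of -3.29 (SE 0.08, limma adjusted p 9.59e-19). Lpar6, a receptor for lysophosphatidic acid, went from 9.68, 9.71 and 9.81 to 6.77, 6.67 and 6.81 (-2.98, SE 0.07). Arrdc3, an alpha-arrestin that guides the trafficking of receptors, went from 9.87, 9.80 and 9.82 to 6.85, 6.92 and 7.00 (-2.91, SE 0.06). In these 3 genes every library at 2 h lay below every library at 0 h by more than 2 log2 units.

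Zfp36l2, which binds AU-rich elements and promotes mRNA decay, fell from 12.31, 12.29 and 12.28 to 9.64, 9.76 and 9.66 (-2.61, SE 0.05, limma adjusted p 7.57e-20). Cxcr4, the receptor for the chemokine CXCL12, fell from 9.37, 9.49 and 9.39 to 6.88, 6.89 and 7.10 (-2.46, SE 0.08, adjusted p 1.79e-16). Rhov, an atypical small GTPase, changed by -2.66, Lyl1, a basic helix-loop-helix factor of blood cell precursors, by -2.52, and Cd300lb, an activating receptor of myeloid cells, by -2.49. Irf2bp2, a co-repressor that binds IRF2, changed by -2.43, Gpr146 by -2.40 and Arhgap25, a GTPase-activating protein for Rac in phagocytes, by -2.31.

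Gm42674 had the largest fitted fall, -4.01, with an SE of 0.94 (limma adjusted p 0.000906). It went from 8.12, 7.87 and 7.87 before LPS to 4.00, 3.94 and 3.91 after it. The annotated gene overlaps S100a3 and S100a4 on the same strand, so reads can be split among them, and its SD at 0.5 h was 2.23. Its value is therefore uncertain.

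Promoters are shown because the members that moved most were then searched for short motifs of the pathway. Of the 13901 tested genes, 9582 (68.9%) had an entry in the RefSeq promoter table (build GRCm38.p6), whose windows run from 250 bases before to 50 after the transcription start. The letters searched on both strands were these: GGG, any 2 bases, TTTCC for NF-kB, TGANTCA for AP-1, TGACGTCA for CREB and ATF factors, GAAA, any 2 bases, GAAA for interferon regulatory factors, the CArG box of SRF and TATAAA for the TATA box. A match is a description of the sequence and not a binding site. The upstream 250 bases are given 5′ to 3′ on the gene's strand for 4 of the largest rises and 2 of the largest falls, with a match in capitals: Il12b (chr11:44399813-44400062, plus strand), Ccl22 (chr8:94745434-94745683, plus), Cish (chr9:107296409-107296658, plus), Edn1 (chr13:42301226-42301475, plus), Cnr2 (chr4:135894939-135895188, plus) and Lpar6 (chr14:73237641-73237890, plus). Each window ends at a RefSeq transcript start, which is the annotated gene start for Il12b and Edn1 but lies 4 bases before it for Lpar6 and 205 before it for Cnr2. It lies 94 bases after the gene start for Ccl22 and 633 after it for Cish, whose window is inside the annotated gene.
Il12b: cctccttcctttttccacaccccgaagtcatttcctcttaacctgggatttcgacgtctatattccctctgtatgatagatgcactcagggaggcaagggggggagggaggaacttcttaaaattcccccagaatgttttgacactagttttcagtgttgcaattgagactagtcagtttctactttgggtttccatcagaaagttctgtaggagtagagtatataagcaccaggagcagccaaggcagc
Ccl22: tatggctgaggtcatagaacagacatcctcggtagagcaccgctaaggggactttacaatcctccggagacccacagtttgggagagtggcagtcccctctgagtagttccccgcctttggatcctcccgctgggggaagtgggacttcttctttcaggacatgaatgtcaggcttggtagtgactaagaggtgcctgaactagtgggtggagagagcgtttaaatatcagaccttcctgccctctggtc
Cish: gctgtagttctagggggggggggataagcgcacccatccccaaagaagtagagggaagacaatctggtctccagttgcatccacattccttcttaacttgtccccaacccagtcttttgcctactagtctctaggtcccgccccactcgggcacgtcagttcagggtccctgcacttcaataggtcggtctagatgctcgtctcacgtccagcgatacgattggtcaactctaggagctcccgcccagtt
Edn1: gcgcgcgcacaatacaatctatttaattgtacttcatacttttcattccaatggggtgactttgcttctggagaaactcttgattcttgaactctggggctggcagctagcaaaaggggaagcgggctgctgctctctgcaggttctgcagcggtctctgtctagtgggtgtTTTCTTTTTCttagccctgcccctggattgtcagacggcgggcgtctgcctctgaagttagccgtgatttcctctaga
Cnr2: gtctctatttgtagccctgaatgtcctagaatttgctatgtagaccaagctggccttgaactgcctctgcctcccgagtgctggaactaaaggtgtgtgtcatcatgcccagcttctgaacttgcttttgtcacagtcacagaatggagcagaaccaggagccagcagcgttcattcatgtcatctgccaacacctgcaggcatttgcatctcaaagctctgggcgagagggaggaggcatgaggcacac
Lpar6: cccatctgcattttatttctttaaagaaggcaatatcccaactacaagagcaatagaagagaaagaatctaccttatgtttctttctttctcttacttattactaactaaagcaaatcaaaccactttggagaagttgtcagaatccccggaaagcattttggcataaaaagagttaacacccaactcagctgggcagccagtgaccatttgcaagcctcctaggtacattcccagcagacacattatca

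Edn1 was the only one of the 6 with a match, to the interferon regulatory factor letters on the other strand, 78 bases before its start. The other 5 windows held none of the searched letters, which says only that those letters are absent there. Across promoters of 300 bases, the NF-kB letters stood in 6 of the 52 genes that rose at least 8-fold (11.5%), in 3.69% of the 542 that rose at least 2-fold, in 1.60% of the 250 that fell at least 2-fold and in 1.73% of all 9582. TGANTCA stood in 17.3% of the 8-fold rises, 9.23% of the 2-fold rises, 5.60% of the 2-fold falls and 5.07% of all. The interferon regulatory factor letters stood, in the same order, in 9.62%, 7.56%, 2.00% and 3.33%, and TATAAA in 23.1%, 13.3%, 8.40% and 7.03%. TGACGTCA stood in 1.92%, 2.03%, 2.80% and 3.28%. The CArG box stood in 0 of the 52 promoters of 8-fold rises, in 1.66% of the 2-fold rises, 0.40% of the 2-fold falls and 1.22% of all.

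The 6 matches to the NF-kB letters among the 8-fold rises lay in 3 neighbouring CXC chemokine genes of chromosome 5, in Il6, in Gbp5 and in Csf1. They were chosen after the values were seen and are shown to let the letters be compared. Each line gives 10 bases on either side of the match, which is in capitals, on the gene's strand, so that a match on the other strand reads as GGAAA, any 2 bases, CCC.
Il6 (chr5:30013060-30013089, plus strand, match from 44 bases before the start): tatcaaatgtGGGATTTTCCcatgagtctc
Cxcl3 (chr5:90786018-90786047, plus strand, match from 73 bases before the start): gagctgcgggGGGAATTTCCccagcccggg
Cxcl1 (chr5:90891146-90891175, plus strand, match from 89 bases before the start): ccggttgcagGGAAACACCCtgtactccgg
Gbp5 (chr3:142496847-142496876, plus strand, match from 77 bases before the start): ggagaggaaaGGAAATTCCCagggctggcc
Cxcl2 (chr5:90903792-90903821, plus strand, match from 97 bases before the start): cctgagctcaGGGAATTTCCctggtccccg
Csf1 (chr3:107760604-107760633, minus strand, match from 154 bases before the start): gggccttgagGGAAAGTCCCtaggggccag

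The 5 matches to the interferon regulatory factor letters among the 8-fold rises are shown on the same terms and read TTTC, any 2 bases, TTTC where they lie on the other strand. Gbp5, an interferon-inducible GTPase, carried both motifs.
Edn1 (chr13:42301388-42301417, plus strand, match from 78 bases before the start): tagtgggtgtTTTCTTTTTCttagccctgc
Cxcl10 (chr5:92349083-92349112, minus strand, match from 213 bases before the start): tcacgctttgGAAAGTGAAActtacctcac
Gbp5 (chr3:142496759-142496788, plus strand, match from 165 bases before the start): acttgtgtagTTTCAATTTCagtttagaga
Socs1 (chr16:10785600-10785629, minus strand, match from 83 bases before the start): agacttgccgGAAAGAGAAAccgaaagcgg
Ifi205 (chr1:174031870-174031899, minus strand, match from 134 bases before the start): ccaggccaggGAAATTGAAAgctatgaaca

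The members of the NF-kB system rose almost as a whole. This list holds the DNA-binding subunits, the IkB inhibitors that retain them in the cytosol, the kinases that mark the inhibitors for decay and the ubiquitin-editing proteins that end the signal. Of its 23 genes, 22 rose (95.7%, against 30.6% of all tested genes), 1 fell and 17 rose at least 2-fold, and the median change was 1.78 against -0.02 for all tested genes. Nfkbiz, a nuclear IkB protein needed for a part of the later genes, was at 11.11, 11.06 and 11.06 before and 14.51, 14.52 and 14.54 after LPS (rise 3.44, SE 0.04, limma adjusted p 5.20e-23). Tnfaip3, which encodes A20, an inhibitor of NF-kB signalling, went from 11.86, 11.79 and 11.79 to 14.72, 14.76 and 14.84 (2.96, SE 0.05). Nfkbia, the IkB alpha that NF-kB itself induces, went from 11.77, 11.76 and 11.73 to 14.46, 14.49 and 14.48 (2.72, SE 0.04). The libraries of each group lay close together in all 3 genes. Nfkbie rose by 2.65. Among the subunits, the activating Rela changed least (0.94) and Rel (2.23), Nfkb2 (2.08), Nfkb1 (1.92) and Relb (1.78) more. Ikbkg, the regulatory subunit of the IkB kinase, was the member that fell, by 0.10, and its call was lost without 0 h replicate 3 (-0.08, adjusted p 0.0560) and without 2 h replicate 3 (-0.08, 0.0554).

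Most cytokines and growth factors rose. Of 39 tested, 27 rose (69.2%), 6 fell (15.4%) and 6 were not called, against 30.6% and 30.21% of all tested genes, with a median of 1.45. Tnf, a proinflammatory cytokine, was at 12.26, 12.28 and 12.27 before and 15.57, 15.60 and 15.65 after LPS (rise 3.33, SE 0.06, limma adjusted p 9.72e-21). Il10, which restrains macrophage activation, went from 5.78, 6.13 and 6.04 to 8.08, 8.18 and 8.30 (2.21, SE 0.14). Il1a rose by 4.61, Tnfsf15 by 4.09, Il23a by 3.09 and Csf1, the macrophage growth factor, by 3.05. The members that fell were Il16 (-1.66), the angiogenic Vegfa (-1.12), Tnfsf13 (-0.52), Tnfsf12 (-0.29), Vegfb (-0.24) and Pdgfb (-0.23). Igf1 was at 14.93, 14.96 and 14.96 before and 14.92, 14.95 and 14.90 after, a difference of -0.03 that was not called (adjusted p 0.470), though it was called at -0.42 under quantile normalisation.

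Chemokines had the highest median of the 26 lists, 3.00. Of 24 tested, 20 rose (83.3%, against 30.6% of all tested genes) and 17 of these at least 2-fold. Besides Ccl22, the neutrophil attractant Cxcl3 went from 4.87, 4.90 and 4.68 to 9.47, 9.58 and 9.54 (rise 4.71, SE 0.09). Cxcl10, an attractant of activated T cells and an interferon-stimulated gene, went from 11.54, 11.37 and 11.29 to 15.61, 15.58 and 15.80 (4.26, SE 0.20). Ccl5 went from 9.11, 8.97 and 8.96 to 13.10, 13.15 and 13.20 (4.14, SE 0.20). In each of them the groups were far apart. Cxcl1, Cxcl2, Ccl2, Ccl3, Ccl4 and Ccl7 rose by 2.70 to 4.10, while Ccl6 and Ppbp were not called. Ccl25 (-0.29) and Cxcl14 (-0.25) fell, but the call of Cxcl14 was lost without any one of 4 of the 6 libraries (-0.19 to -0.23, adjusted p 0.111 to 0.172) and that of Ccl25 under quantile normalisation.

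Of 16 receptors for chemoattractants, 6 were higher (37.5%), 6 lower (37.5%) and 4 not called, shares near the 30.6% and 30.21% of all tested genes. Ccrl2, an atypical receptor that binds chemerin without signalling, went from 10.42, 10.33 and 10.26 to 13.57, 13.57 and 13.66 (rise 3.26, SE 0.11). The formyl peptide receptors Fpr2 and Fpr1 rose by 2.43 and 1.90, and C5ar1, a receptor for complement fragment C5a, by 0.68. Ccr2, the receptor that brings monocytes into tissue, was at 10.06, 9.99 and 10.17 before and 9.09, 9.10 and 9.39 after (-0.88, SE 0.12, limma adjusted p 3.00e-06). Its ligands Ccl2 and Ccl7 were among the genes that rose. Cxcr3 changed by -0.49 and Cx3cr1 by -0.27 (adjusted p 0.00894), a call that was lost without 0 h replicate 1 (-0.15, 0.0940) or 2 h replicate 3 (-0.22, 0.0515).

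**Figure D3:**
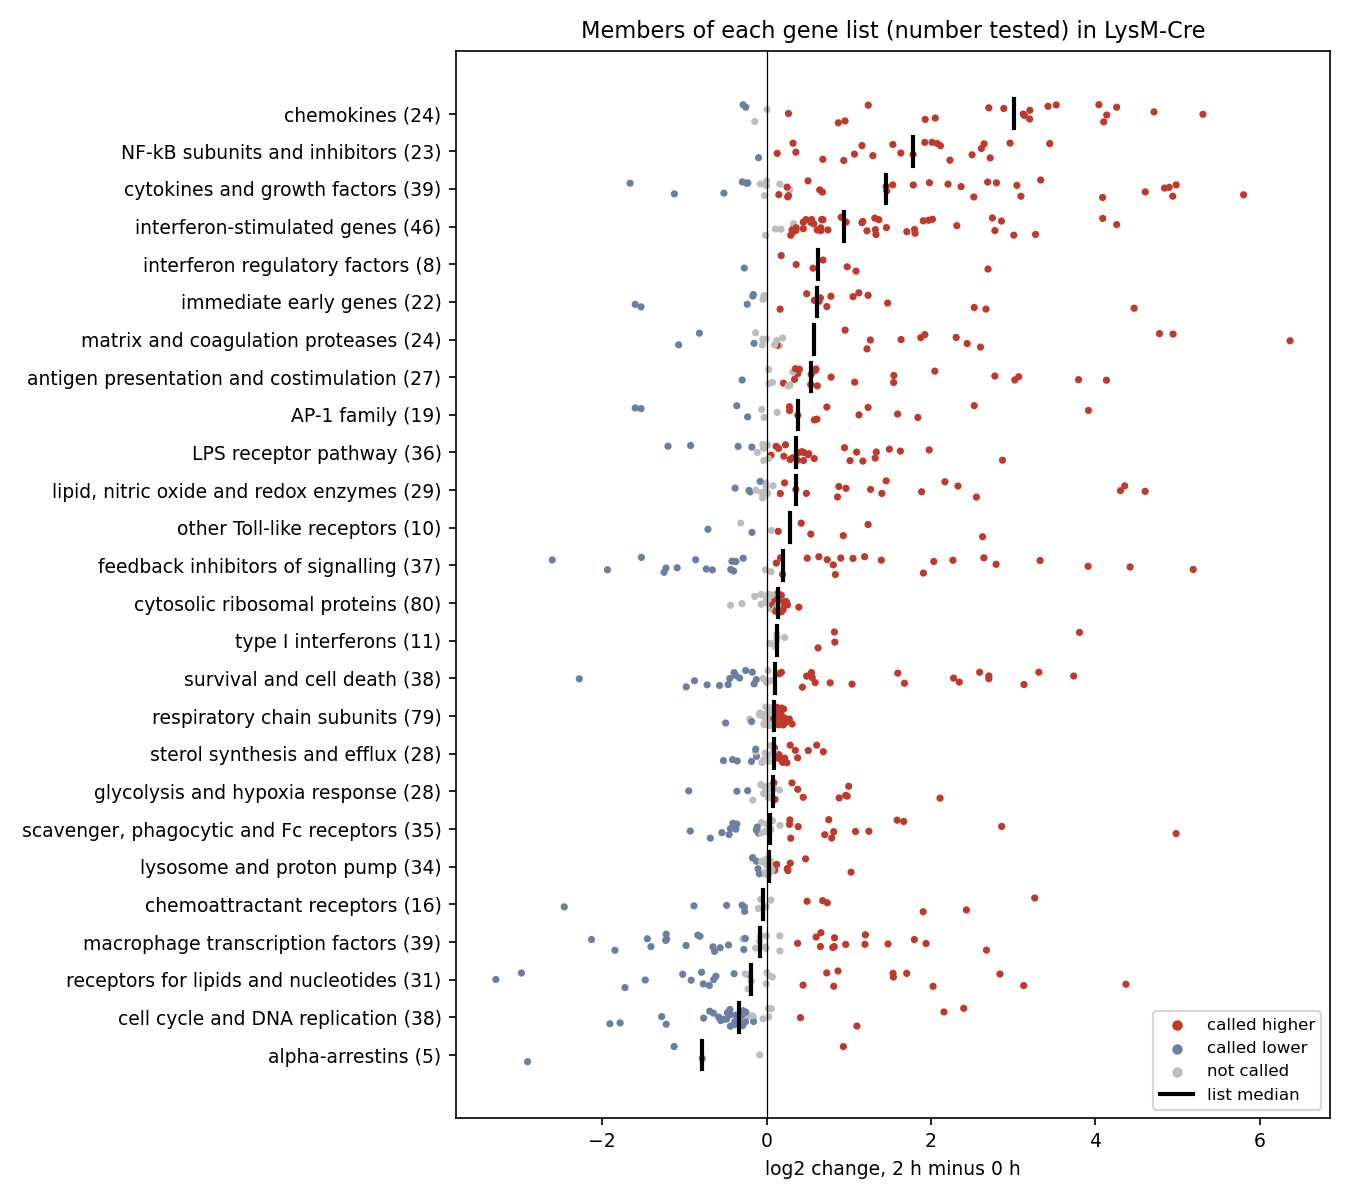
Change at 2 h minus 0 h (horizontal axis, log2) of each tested member of 26 gene lists in LysM-Cre macrophages, coloured by call, with the list median as a black bar and the number tested in brackets. The medians run from 3.00 for the chemokines to -0.78 for the alpha-arrestins, and the ribosomal, respiratory chain and lysosomal genes lie close to 0.

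Immediate early genes, which are induced from existing transcription factors within minutes, had in part returned to their level before LPS, or fallen below it, by 2 h. Of 22 genes, 14 were still higher (63.6%), 5 were lower (22.7%) and 3 were not called, against 30.6% and 30.21% of all tested genes, with a median of 0.61, and under quantile normalisation 14 were higher and 7 lower with a median of 0.32. The highest was Nr4a3, an orphan nuclear receptor, which went from 4.62, 4.26 and 4.47 to 8.84, 8.96 and 8.96 (rise 4.47, SE 0.12). Egr1, a zinc finger factor driven by SRF and its partners, was at 9.09, 8.72 and 8.74 before and 9.51, 9.72 and 9.67 after (0.78, SE 0.10, limma adjusted p 6.74e-07). Egr1 had a mean of 14.28 at 0.5 h, so most of its rise was gone at 2 h. Nr4a1, a relative of Nr4a3, had means of 5.73 before LPS, 9.12 at 0.5 h and 5.70 at 2 h, when its change was not called. Fos was at 11.17, 11.07 and 11.10 before and 9.61, 9.42 and 9.52 after LPS (-1.60, SE 0.09), and Jun at 11.44, 11.51 and 11.52 before and 9.87, 9.98 and 10.04 after (-1.53, SE 0.04). Fos and Jun, the classical pair of AP-1, thus both stood below their level before LPS.

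Most members of the AP-1 family rose, unlike Fos and Jun. Of 19 members, 12 rose (63.2%), 4 fell (21.1%) and 3 were not called, against 30.6% and 30.21% of all tested genes, with a median of 0.38. Jdp2, a dimerisation partner that represses AP-1 targets, went from 8.50, 8.29 and 8.40 to 12.34, 12.35 and 12.25 (rise 3.92, SE 0.08). Maff rose by 2.53, Batf by 1.84, Batf2 by 1.59, Junb by 1.23 and Atf3 by 0.58. Fosl2 changed by -0.36, and Fosl1 was not called at 2 h (0.13, limma adjusted p 0.440).

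Inhibitors of signalling went in both directions. Of 37 tested, 21 rose (56.8%), 14 fell (37.8%) and 2 were not called, against 30.6% and 30.21% of all tested genes, with a median of 0.20. Among inhibitors of cytokine receptors, Socs3 went from 9.31, 9.31 and 9.23 to 13.67, 13.68 and 13.76 (rise 4.42, SE 0.07), and Socs1 rose by 3.91. Dusp2, a nuclear phosphatase of ERK, rose by 3.33, while Dusp6, its cytosolic counterpart, went from 9.88, 9.59 and 9.74 to 7.77, 7.84 and 7.79 (-1.94, SE 0.06). Of the RNA-binding proteins that shorten the life of cytokine mRNAs, Zc3h12a, which encodes Regnase-1, rose by 2.79 and Zfp36, which encodes tristetraprolin, by 1.05. Their relatives moved the other way: Zc3h12d changed by -1.52, Zfp36l1 by -1.25 and Zfp36l2 by -2.61. Paralogs within a family of inhibitors therefore took opposite directions.

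**Figure D4:**
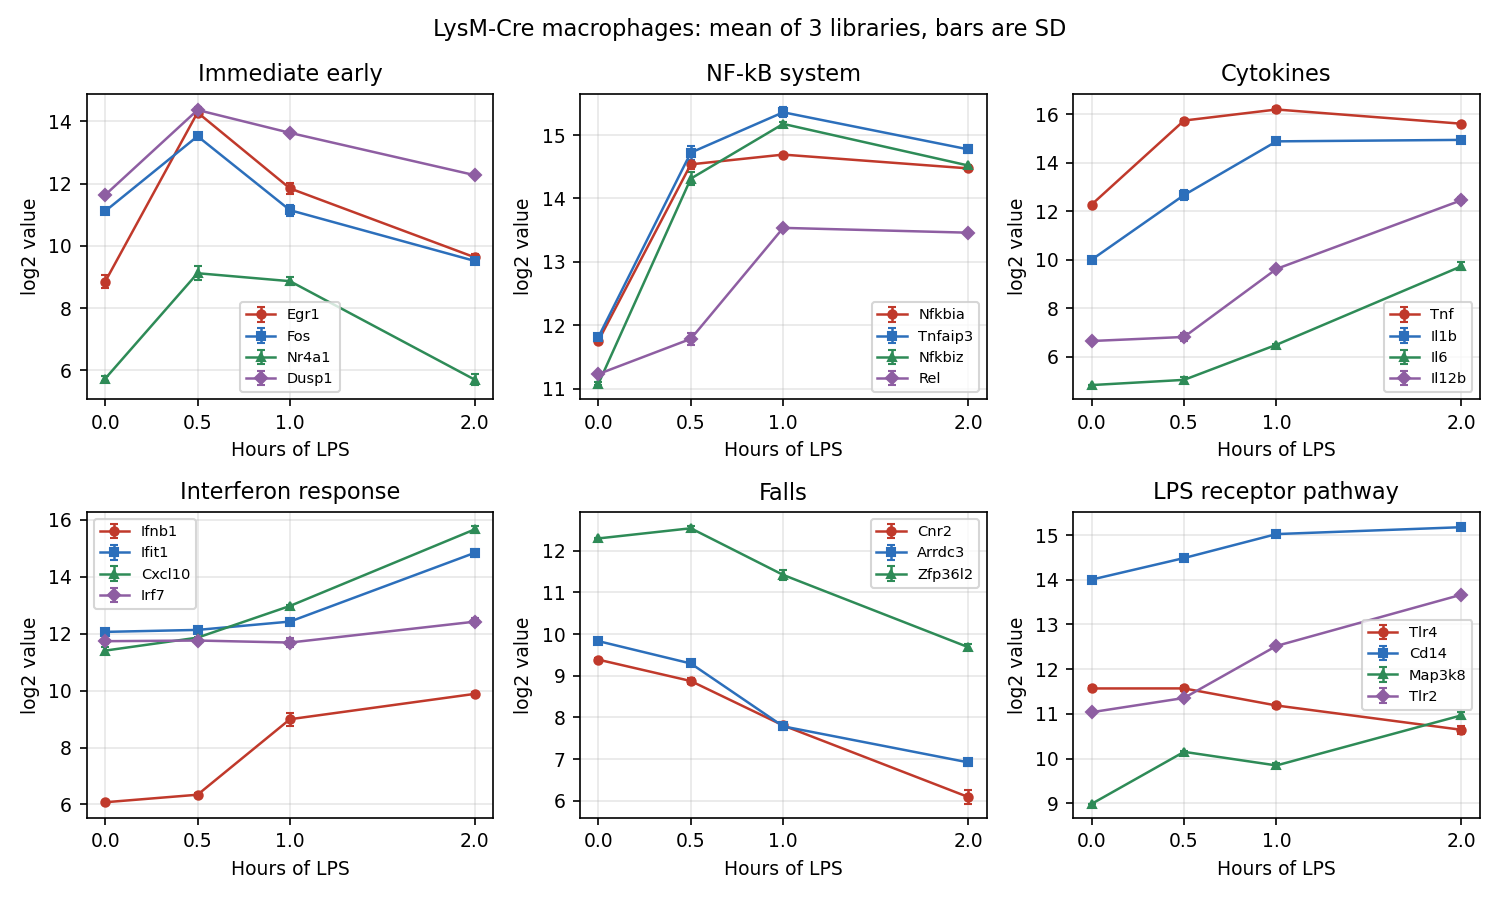
Log2 value (vertical axis) against hours of LPS (horizontal axis) for 23 genes in LysM-Cre macrophages, as the mean of 3 libraries with bars for the SD. Egr1 peaks at 14.28 at 0.5 h and Tnf at 16.19 at 1 h, whereas Il6, Il12b, Cxcl10 and Ifit1 are highest at 2 h.

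The 2 h values stood at different points of the time course for different groups. The responses at 0.5, 1 and 2 h share the 0 h libraries and are therefore given side by side only. The median change of the immediate early genes was 2.40, 1.91 and 0.61 at 0.5, 1 and 2 h. For the NF-kB system it was 0.21, 1.30 and 1.78, for chemokines 0.10, 0.75 and 3.00, and for interferon-stimulated genes 0.02, 0.01 and 0.94. Tnf was already at 15.73 at 0.5 h and at 16.19 at 1 h, above its 15.60 at 2 h. Il1b was at 12.66, 14.88 and 14.94 at 0.5, 1 and 2 h, and so was near its 2 h level by 1 h. Il6 was at 5.04, 6.49 and 9.72, Il12b at 6.81, 9.62 and 12.45, and Adamts4 at 4.64, 6.99 and 10.97, so that all 3 were highest at 2 h. Among the falls, Cnr2 was at 8.87, 7.81 and 6.09.

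Ifnb1, which encodes interferon beta, was at 6.05, 6.04 and 6.14 before and 9.84, 9.84 and 9.97 after LPS (rise 3.81, SE 0.12, limma adjusted p 2.80e-16). Of the 17 type I interferon genes listed, 11 were tested, of which 4 rose (36.4%, near the 30.6% of all tested genes) and 7 were not called. The filter covers all 24 libraries, and some interferon alpha genes passed it only through libraries labelled FosKO, where they were higher. Ifna4 went from 2.68, 2.70 and 2.72 to 2.93, 3.59 and 3.47 (0.63, adjusted p 0.00198), Ifna2 and Ifna5 each rose by 0.83, and all 3 stayed at low values. The interferon alpha genes are near-identical copies that can share reads, so their values are uncertain.

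Of 46 interferon-stimulated genes, 42 rose (91.3%, against 30.6% of all tested genes), none fell and 4 were not called, with a median of 0.94. Gbp5 went from 9.64, 9.47 and 9.48 to 13.54, 13.55 and 13.77 (rise 4.09, SE 0.22). Mx2, an antiviral GTPase, went from 9.17, 9.05 and 8.95 to 12.28, 12.25 and 12.46 (3.27, SE 0.13), and Ifit1, which binds foreign RNA, from 12.10, 12.10 and 11.98 to 14.76, 14.75 and 15.00 (2.78, SE 0.15). The ubiquitin-like Isg15 rose by 1.80, Ifit2 by 1.71, Mx1 by 2.75 and Oasl1 by 3.01. With quantile normalisation 34 of the 46 rose and 2 fell.

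Among 8 tested interferon regulatory factors 7 rose and 1 fell (87.5% and 12.5%, against 30.6% and 30.21% of all tested genes), with a median of 0.63 that was 0.34 under quantile normalisation. Irf1 went from 11.43, 11.35 and 11.32 to 14.02, 14.01 and 14.15 (rise 2.69, SE 0.09), Irf8 rose by 1.09, Irf7 by 0.69 and Irf3, the factor that TRIF signalling activates, by 0.18. Irf2, an antagonist of Irf1, changed by -0.27.

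Components of the LPS receptor pathway also changed. Of 36 genes, 26 rose (72.2%), 4 fell (11.1%) and 6 were not called, against 30.6% and 30.21% of all tested genes, with a median of 0.36, and under quantile normalisation 20 rose and 11 fell. Tlr4, the receptor itself, was at 11.53, 11.55 and 11.62 before and 10.62, 10.57 and 10.75 after LPS (-0.92, SE 0.05, limma adjusted p 4.52e-13). Its co-receptor Cd14 rose instead, by 1.17 (SE 0.05), to 15.14, 15.18 and 15.20. Map3k8, which encodes the ERK pathway kinase TPL-2, was at 8.99 in each library at 0 h and at 10.89, 10.96 and 11.04 at 2 h (1.98, SE 0.06). The ubiquitin ligase Peli1 rose by 2.87, Irak2 by 1.63, the IRF3 kinase subunit Ikbke by 1.49 and the adaptor Myd88 by 1.02. Tab1, an activator of the kinase TAK1, changed by -1.20, and its partner Tab2 by 1.10.

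Among the other Toll-like receptor genes, 6 of 10 rose and 2 fell, against 30.6% and 30.21% of all tested genes, or 5 and 4 under quantile normalisation. Tlr2, which senses bacterial lipopeptides, went from 11.05, 11.03 and 11.03 to 13.63, 13.66 and 13.70 (rise 2.63, SE 0.10). Its partners Tlr1 and Tlr6 rose by 1.23 and 0.93. Tlr13, which senses bacterial ribosomal RNA, changed by -0.71.

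Enzymes that make lipid mediators, nitric oxide and itaconate rose in part. Of 29 tested, 17 rose (58.6%, against 30.6% of all tested genes), 4 fell and 8 were not called, with a median of 0.36, and under quantile normalisation 16 rose and 8 fell with a median of 0.15. Nos2, the inducible nitric oxide synthase, went from 5.93, 5.70 and 5.62 to 10.32, 10.29 and 10.44 (rise 4.61, SE 0.29). Ptgs2, the inducible cyclooxygenase, went from 8.43, 8.20 and 8.35 to 12.61, 12.66 and 12.78 (4.36, SE 0.13), while the constitutive Ptgs1 changed by -0.38. Irg1, also called Acod1, which makes itaconate, went from 11.50, 11.36 and 11.30 to 15.66, 15.68 and 15.74 (4.31, SE 0.16). All 3 inducible enzymes had groups more than 4 log2 units apart. The cystine carrier Slc7a11 rose by 2.55.

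Glycolytic genes did not move together. Of 28 genes, 10 rose (35.7%), 3 fell (10.7%) and 15 were not called, against 30.6% and 30.21% of all tested genes, but under quantile normalisation 8 rose and 13 fell, and the median of 0.08 turned to -0.16. The largest of the 10 rises were in the transporter Slc2a6 (2.11), the regulatory kinase Pfkfb3 (1.00), the hexokinase Hk2 (0.98) and the oxygen-sensing factor Hif1a (0.96). Hk2 was at 9.88, 9.82 and 9.87 before and 10.78, 10.83 and 10.90 after LPS. Ldha rose by 0.09 (limma adjusted p 0.0248), a call that was lost with TMM scaling or without any one of 4 of the 6 libraries, and it changed by -0.22 under quantile normalisation.

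In sterol metabolism 13 of 28 genes rose (46.4%), 6 fell (21.4%) and 9 were not called, against 30.6% and 30.21% of all tested genes, but under quantile normalisation 4 rose and 14 fell, and the median of 0.08 turned to -0.11. The cholesterol exporter Abcg1 changed by -0.52. Neither group had a member that fell at least 2-fold.

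Genes of the cell cycle and of DNA replication were mostly lower. Of 38 genes, 27 fell (71.1%), 4 rose (10.5%) and 7 were not called, against 30.21% lower and 30.6% higher among all tested genes, with a median of -0.34 that was -0.45 under quantile normalisation. E2f2, which drives entry into DNA synthesis, went from 8.64, 8.41 and 8.60 to 6.64, 6.71 and 6.58 (-1.91, SE 0.10, limma adjusted p 1.29e-12). Cdc6, which loads the replicative helicase, went from 8.20, 8.03 and 8.10 to 6.53, 6.27 and 6.18 (-1.78, SE 0.13), and its partner Cdt1 changed by -1.28. Cyclin genes Ccne2 (-1.22) and Ccnd1 (-0.56) fell as well. Cdkn1a, an inhibitor of cyclin-dependent kinases, rose from 13.22, 13.05 and 13.06 to 15.49, 15.50 and 15.54 (2.40, SE 0.06), and Ccnd2 by 2.16. Mki67, a marker of cycling cells, rose by 1.10, against the direction of most of the list.

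Of 39 transcription factors of macrophages, 14 were higher (35.9%), 16 lower (41.0%) and 9 not called, not far from the 30.6% and 30.21% of all tested genes. Foxo3 changed by -1.84, Bhlhe41 by -1.45 and Myc by -1.22. On the other side, Tfec, a relative of Mitf, went from 9.27, 9.16 and 9.25 to 11.90, 11.91 and 11.89 (rise 2.67, SE 0.05). Klf7 rose by 1.94, Prdm1, which encodes Blimp-1, by 1.80 and Spi1, which encodes the lineage factor PU.1, by 0.66. Cebpb was not called (0.16, adjusted p 0.317).

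Receptors for lipids and nucleotides contained both Cnr2 and some of the strongest rises. Of 31 tested, 11 rose (35.5%), 13 fell (41.9%) and 7 were not called, not far from the 30.6% and 30.21% of all tested genes, with a median of -0.19. Adora2a, an adenosine receptor that dampens inflammation, went from 4.20, 3.95 and 4.31 to 8.55, 8.54 and 8.50 (rise 4.37, SE 0.12). Hcar2, the receptor for nicotinic acid and ketone bodies, rose by 3.13, and Gpr84, a receptor for medium-chain fatty acids, by 2.84. Lpar5, a further lysophosphatidic acid receptor, went from 8.07, 7.95 and 8.01 to 6.23, 6.31 and 6.33 (-1.72, SE 0.10). Of the 5 alpha-arrestins, 3 fell (against 30.21% of all tested genes), namely Arrdc3, Arrdc2 (-1.12) and the glucose-responsive Txnip (-0.78), while Arrdc4 rose by 0.93.

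Scavenger, phagocytic and Fc receptors gave 14 rises (40.0%), 11 falls (31.4%) and 10 genes not called among 35, near the 30.6% and 30.21% of all tested genes, with a median of 0.04. Under quantile normalisation 12 rose and 17 fell, and the median was -0.13. After Olr1, the mycobacterial glycolipid receptor Clec4e went from 11.69, 11.64 and 11.59 to 14.44, 14.52 and 14.54 (rise 2.86, SE 0.09). Marco rose by 1.67, the inhibitory Fc receptor Fcgr2b by 1.59 and Msr1 by 0.76. Mertk, which takes up apoptotic cells, was at 9.81, 9.85 and 9.80 before and 9.07, 9.09 and 9.25 after (-0.68, SE 0.06), and Cd300lf changed by -0.93 and Trem2 by -0.13.

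Of 38 regulators of survival and cell death, 19 were higher (50.0%) and 14 lower (36.8%), against the 30.6% and 30.21% of all tested genes. The antiapoptotic Bcl2a1 paralogs Bcl2a1d, Bcl2a1a and Bcl2a1b rose by 3.74, 3.31 and 3.13, but they are near-identical and can share reads. Nlrp3, the sensor of an inflammasome, was at 11.46, 11.35 and 11.42 before LPS and rose by 2.59 (SE 0.06), and the kinase gene Ripk2 rose by 2.70. The proapoptotic Bcl2l11, which encodes Bim, rose by 1.68, while another proapoptotic gene, Bmf, changed by -2.28 (SE 0.11).

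Genes of antigen presentation and costimulation gave 20 rises (74.1%, against 30.6% of all tested genes), 1 fall and 6 not called among 27, with a median of 0.54 that was 0.35 under quantile normalisation. Cd40, which receives help from T cells, went from 9.06, 9.02 and 8.91 to 13.08, 13.12 and 13.20 (rise 4.13, SE 0.16), and the adhesion molecule Icam1 from 11.86, 11.80 and 11.80 to 15.57, 15.63 and 15.64 (3.80, SE 0.08). Vcam1 rose by 3.07 and Cd83 by 3.02. The class II gene H2-Ab1 was not called in the fit of all libraries (0.32, limma adjusted p 0.0717), but was called when only the 6 libraries compared were fitted (adjusted p 0.000891), and its activator Ciita rose by 1.07.

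The list of matrix and coagulation proteases, which holds Adamts4 and Plat, gave 13 rises (54.2%, against 30.6% of all tested genes), 3 falls and 8 not called among 24, with a median of 0.58. Mmp13 rose by 2.44, Mmp14 by 2.31 and Plaur, the receptor of urokinase, by 1.64. Plau, urokinase itself, was at 13.42, 13.15 and 13.15 before and 12.26, 12.13 and 12.12 after LPS (-1.07, SE 0.06, limma adjusted p 1.35e-12). The 2 plasminogen activators, Plat and Plau, thus moved in opposite directions.

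Housekeeping groups changed little, and their direction depended on the scaling. Of 80 ribosomal protein genes, 51 rose (63.7%, against 30.6% of all tested genes) and 29 were not called, with a median of 0.14 and none past 2-fold, but under quantile normalisation 46 fell, none rose and the median was -0.16. Of 79 genes matched as respiratory chain subunits, 38 rose (48.1%, against 30.6%) and 3 fell with a median of 0.09, which became 8 and 16 with a median of -0.01. One of the 3 was Atp5sl (-0.50), which the name pattern caught though it is not a subunit. Of 34 lysosomal genes, 8 rose (23.5%), 5 fell (14.7%) and 21 were not called, below the 30.6% and 30.21% of all tested genes, with a median of 0.03, which became 3 and 25 with a median of -0.31. The cathepsin gene Ctsc rose by 1.03 and Ctsd was not called.

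The response in the libraries labelled FosKO, which are separate libraries, was set beside it to show where the control response differed. Those libraries also differed from LysM-Cre in their Lyz2 and Fos values, which are given above. Effects of the Fos genotype and of anything else that differs with the label cannot be told apart. Of the 755 genes that rose at least 2-fold in LysM-Cre, 749 (99.2%) also rose in the libraries labelled FosKO, where 32.6% of all tested genes rose (29.5% fell), and 645 of them at least 2-fold, which is 85.4% of the LysM-Cre list and 79.6% of the 810 in those libraries (5.83% of all tested). Of the 365 that fell at least 2-fold, 350 (95.9%) also fell, and 237 at least 2-fold, 64.9% of that list and 62.4% of the 380 in those libraries (2.73% of all tested). None of the 1120 was called in the opposite direction. A test of the difference between the responses called 15.0% of all tested genes, with 7.27% more positive in the libraries labelled FosKO and 7.7% more negative. It called 16 of the 24 largest rises and falls, which were chosen by their change in LysM-Cre.

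Among the largest rises, Il6, Il12b, Edn1 and Il27 rose more in the libraries labelled FosKO, and Ccl22, Olr1, Il4i1 and Plat rose less. Il6 rose by 4.90 in LysM-Cre against 6.19 with the label FosKO (difference 1.29, SE 0.16, limma adjusted p 1.21e-05), and Ccl22 by 5.31 and 3.45 (difference -1.86, SE 0.15, adjusted p 4.25e-08). Adamts4 (6.37 and 6.23), Cish and Il1b, among others, showed no called difference. Of the falls, Cxcr4 changed by -2.46 and -1.54 (difference 0.92, SE 0.11, adjusted p 7.21e-06). Ifnb1, outside the 24, rose by 3.81 and 6.72 (adjusted p of the difference 7.35e-10), and Irf8 by 1.09 and 2.31 (3.41e-11). The median change of interferon-stimulated genes was 0.94 and 0.89, and 1 of the 46 had a called difference, against 15.0% of all tested genes. These are changes from the level before LPS, and the levels of these genes were not compared between the labels. The study reports raised levels of multiple such genes in FosKO cells after LPS, and of a subset already in unstimulated cells. A raised starting level can leave the change alike. A difference that was not called does not show that the responses were equal.

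**Figure D5:**
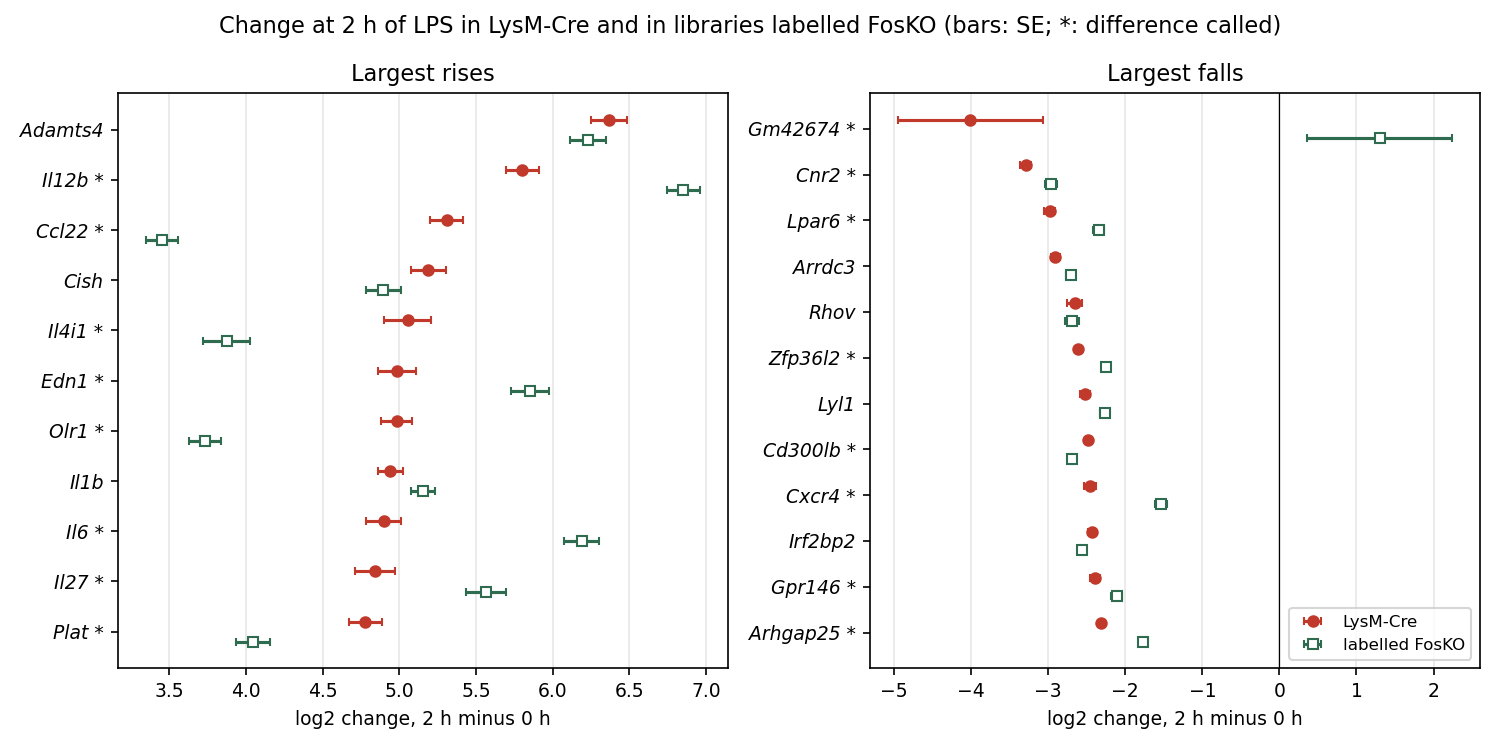
Change at 2 h minus 0 h (horizontal axis, log2, bars are the SE) of 11 of the 12 largest rises and of the 12 largest falls in LysM-Cre (circles) and in the libraries labelled FosKO (squares), with an asterisk where the difference was called. Ccl22 changes by 5.31 and 3.45, Il6 by 4.90 and 6.19, and Gm42674, whose value is uncertain, by -4.01 and 1.30.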

How the data were processed

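RNA was sequenced from single-end, strand-specific TruSeq libraries. The submitters' processing notes name STAR 2.5.2a, RSEM 1.2.31, DESeq2 1.16.1 and GRCm38. The authors deposited 1 table of normalised log2 values per gene and library, and how the log2 transform was made is not given in the sources used here. The study's text names RefSeq genes, while the table has Ensembl IDs, of which 99.6% were found in the annotation used. The table gives no counts and so no depth per sample, and no count test or counting interval was made. Low values may be shrunken, which would understate their changes.

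Genes with a linear value (2 to the power of the deposited value) of at least 5 in at least 3 of 24 libraries were kept. Of these, 32 had values equal to another gene's in every library. limma 3.58.1 (R 4.3.3) was fitted with 8 group means, a variance trend and 16 residual degrees of freedom, and adjusted p-values (Benjamini-Hochberg) ran over all 13901 genes. The fit was tested on simulated data, from which no value is reported here. Lists are described by counts and medians. Named genes were the 12 largest called, non-overlapping, protein-coding rises and falls with a linear mean of at least 50, and in each list up to 4 rises and 3 falls plus preset members. Names outside this rule were chosen after their values were seen. The members and lists were chosen with earlier results of these data known. Alternatives were other sets of libraries, a replicate block, quantile and TMM scaling, other filters, pseudocounts of 1 and 5, a variance without a trend, limma treat and leaving out each of the 6 LysM-Cre libraries compared. Some genes that the rule names are not reported here.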

Additional observations from a re-analysis of the deposited data

Results flagged for a closer look

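For 16 of the 24 largest rises and falls, the log2 change at 2 h differed between the libraries labelled FosKO and LysM-Cre by limma's test of the difference (adjusted p under 0.05 over all genes, 3 libraries in each group), which called 15.0% of all tested genes. The differences are the libraries labelled FosKO minus LysM-Cre, and the genes were picked by their change in LysM-Cre. What caused these differences was not tested. Among the rises, the difference was 1.05 for Il12b (adjusted p 6.44e-05), 1.29 for Il6, 0.87 for Edn1 (0.00157) and 0.72 for Il27 (0.0109), all more positive in the libraries labelled FosKO, though the call of Il27 was lost under quantile normalisation (0.51, adjusted p 0.0689). It was -1.86 for Ccl22, -1.25 for Olr1 (4.24e-06), -1.18 for Il4i1 (0.000657) and -0.74 for Plat (0.00257).

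Among the falls, the difference was 0.92 for Cxcr4, 0.64 for Lpar6 (adjusted p 0.00015), 0.53 for Arhgap25 (3.54e-06), 0.36 for Zfp36l2 (0.00168), 0.33 for Cnr2 (0.0407) and 0.28 for Gpr146 (0.0493), so these genes fell less in the libraries labelled FosKO. Cd300lb fell more, with a difference of -0.20 (0.0106) that was not called under quantile normalisation (-0.13, adjusted p 0.237). Gm42674, whose value is uncertain, gave 5.31 (0.00891). The call of Cnr2 was lost without any one of 5 of the 6 LysM-Cre libraries (0.26 to 0.35, adjusted p 0.0535 to 0.124), and that of Gpr146 without 0 h replicate 1 or 2 or 2 h replicate 1 or 2 (adjusted p 0.0721 to 0.141). Both calls were also lost with TMM scaling and without a filter, and that of Gpr146 with a replicate block (adjusted p 0.0512) and without a variance trend (0.0555). Calls were gained for Lyl1 with the replicate block (0.25, adjusted p 0.0466) and quantile normalisation (0.33, adjusted p 0.0261), for Arrdc3 with quantile normalisation (0.29, adjusted p 0.0197) and for Irf2bp2 without 2 h replicate 3 (-0.21, adjusted p 0.0239), so a similar count can hold different genes.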

How the results depend on the processing

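The count of called genes ran from 7515 (linear value at least 50) to 8892 (replicate block, 6 libraries) and that of 2-fold changes from 979 (pseudocount 5) to 1150. Leaving out 1 of the 6 LysM-Cre libraries compared gave 7888 to 7999 called genes and 1102 to 1150 2-fold changes. It gave 14 to 16 called differences between the libraries labelled FosKO and LysM-Cre among the 24 largest rises and falls. No library labelled FosKO was left out. Testing against a 2-fold change with limma treat gave 697 genes, 537 higher and 160 lower. With a replicate block, 8684 genes were called and 1125 changed at least 2-fold. The r of deviations from group means was 0.0439, 0.0573 and 0.0173 for 0 h and 2 h libraries with the same number. For libraries with different numbers it was lower, from -0.0493 to 0.0066. All these values were small, and the main fit did not pair libraries. Quantile normalisation turned these small changes: Ldha -0.22, Abca1 -0.20, Lamp1 -0.27, Atp5a1 -0.093, Atp5b -0.13, Rpl19 -0.076, Rpl6 -0.10 and Rps6 -0.059. The cause was not tested. The read depth of each library is not in the deposited table, so which low values it limits cannot be said.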
